A study of Mus musculus with 3 samples.

Results

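Mitral cells are the large output neurons of the olfactory bulb. They receive glutamatergic input from olfactory sensory neurons on a dendrite in a glomerulus, exchange glutamate and GABA with granule cells on their lateral dendrites, and send axons to the olfactory cortex. The study divided them into 3 types, and the comparison described here sets the M2 type against the M3 type within the same mice. It asks which genes separate the 2 types and how far the shallower nuclei of the M3 type bear on the answer.

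The members were the nuclei that the deposited table places in subcluster 1 (M2) and subcluster 7 (M3) of the projection neurons. There were 1149 M2 and 326 M3 nuclei, out of 7504 nuclei in the projection neuron subclusters and 31703 nuclei in all. Mice 1, 2 and 3 gave 388, 457 and 304 M2 nuclei and 69, 174 and 83 M3 nuclei. The table holds subcluster numbers and no names, so the types are called M2-like and M3-like below, after marker genes that the study names. M3-like nuclei made up 15.1%, 27.6% and 21.4% of the nuclei of both types in mice 1, 2 and 3, with exact 95% binomial intervals of 11.9 to 18.7%, 24.1 to 31.2% and 17.5 to 25.9% (mean 21.4% ± 6.24, SD, n = 3).

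All 3 mice were adult C57Bl/6 males and belonged to a single group. A virus taken up by axon terminals, retroAAV-CAG-H2B-GFP, had been placed at several sites in 2 targets of the bulb, the piriform cortex (PCx) and the anterior olfactory nucleus (AON). It expresses a green fluorescent protein that is held in the nucleus. Nuclei of the bulb were sorted for this protein and for a DNA dye, and their RNA was counted in droplets as unique molecular identifiers (UMIs), with 1 library per mouse. Since both sites were injected in every mouse, these data do not tell apart nuclei that project to one or the other. Many of the sorted nuclei lay outside the projection neurons, and the study's histology also showed sparse label in granule and putative periglomerular cells. RNA of the fluorescent protein (eGFP) was scarce everywhere, at 82.9 UMIs per 1000000 UMIs (counts per unit of that size, CPM) over the pooled nuclei outside the projection neuron subclusters. It stood at 3.46, 15.7 and 5.63 CPM in the M2-like and 7.26, 34.4 and 20.9 CPM in the M3-like nuclei of mice 1, 2 and 3. The outside nuclei of these mice gave 41.9, 93.1 and 78.4 CPM, and in the comparison of the types described below eGFP was called higher in M3-like nuclei, with libraries that overlapped (log2 fold change -1.11 ± 0.37, edgeR adjusted p = 0.0133).

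The 2 types differed in depth in every mouse. The median M2-like nucleus held 21030.5, 19594 and 23455 UMIs in mice 1, 2 and 3, and the median M3-like nucleus 6866, 5661.5 and 4402 UMIs. The ratio of the medians was 3.95 on average over the mice. Summed per mouse, the M2-like libraries held 8392662, 9518786 and 7464540 UMIs and the M3-like libraries 550818, 1132800 and 620677 UMIs. A CPM of 1 therefore rested on about 8 UMIs in an M2-like library of mouse 1 and on less than 1 UMI in the M3-like library of the same mouse, so genes that are low in M3-like nuclei have the larger error.

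Subcluster 7 was not uniform. Before subclustering, the table had placed 223 of its 326 nuclei (68.4%) in cluster 5 of all nuclei, the cluster that also held 1122 of the 1149 M2-like nuclei. Another 70 came from cluster 2 and 25 from cluster 4, and these were shallow, with medians of 2874.5 and 3409 UMIs. Summed over the 10 M3 markers that the study names, RNA stood at 1670 CPM in the M3-like nuclei of cluster 5, at 66.5 CPM in those of clusters 2 and 4, at 77.7 CPM in the M2-like nuclei of cluster 5 and at 76.7 CPM in nuclei outside the projection neurons. The M3-like nuclei of clusters 2 and 4 thus held the M3 markers at the level of nuclei of other types, and their label is not borne out by these genes. The 8 M3-like nuclei of cluster 13 held them at 2637 CPM. On the other side, the 24 M2-like nuclei of cluster 2 held the M2 markers that the study names at 527 CPM. Those markers stood at 2925 CPM in M2-like nuclei of cluster 5 and at 480 CPM outside the projection neurons.

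The division among M3-like nuclei also followed depth. Of the 176 M3-like nuclei with at least 5000 UMIs, 6 (3.41%) had no UMI of any M3 marker, whereas 116 of the 150 shallower ones (77.3%) had none. Within cluster 5 the shares were 3 of 165 nuclei (1.82%) and 35 of 58 (60.3%). RNA of Gad1 and Gad2, the GABA-synthesizing enzymes of bulb interneurons, ran the other way, at 123 CPM in the deeper M3-like nuclei, 296 CPM in the shallower ones and 49.3 CPM in M2-like nuclei. The comparison was therefore made over all nuclei of both subclusters and again over nuclei of cluster 5 alone and over nuclei with 4000 to 12000 UMIs of both types.

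**Figure D1:**
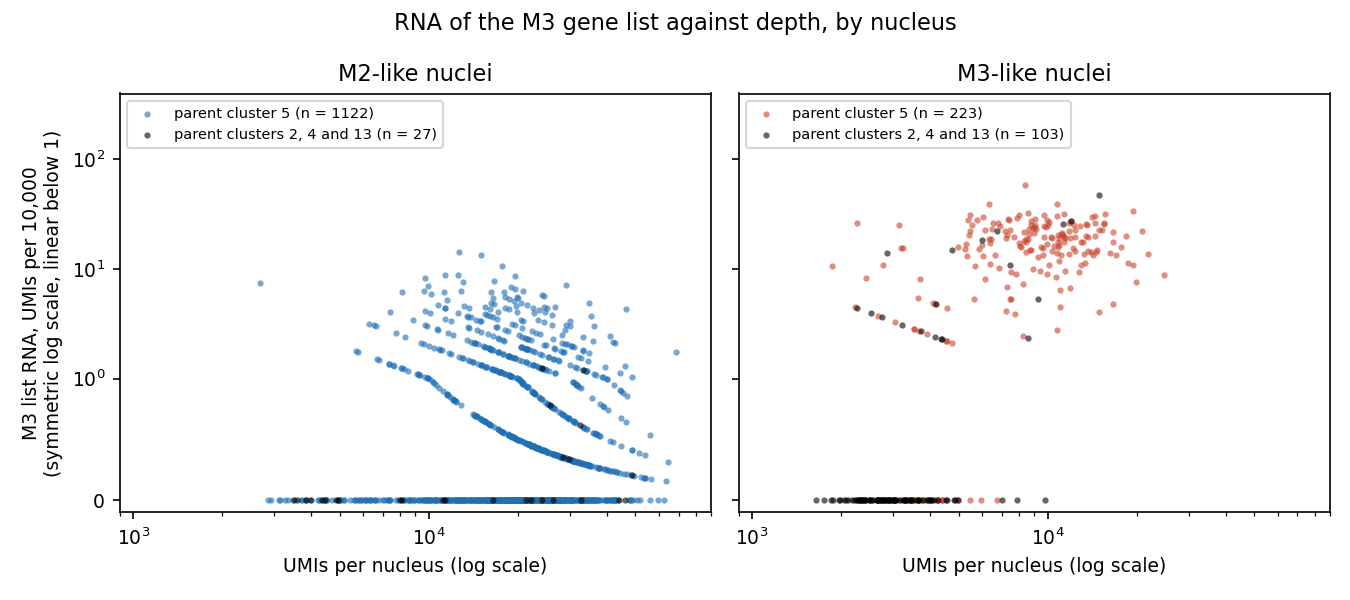
UMIs of the M3 marker list per 10000 UMIs (vertical axis, symmetric log scale, linear below 1) against UMIs per nucleus (horizontal axis, log scale) for 1149 M2-like and 326 M3-like nuclei, 1 point each; colours mark the cluster a nucleus came from before subclustering. M3-like nuclei of at least 5000 UMIs lie in 1 cloud with a median of 18.2 per 10000, while most shallower ones, in black and in red, lie at 0.

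Drawing each nucleus down to 3000 UMIs removed the difference in depth. At that depth an M3 marker was found in 72.5% ± 15.4 of M3-like nuclei (SD, n = 3 mice; 86.4%, 75% and 56.0% in mice 1, 2 and 3) and in 18.5% ± 4.05 of M2-like nuclei. Nuclei outside the projection neurons gave 13.1% ± 1.24. The M3-like nuclei of cluster 5 gave 84.5% ± 16.1 (175 of 206 nuclei), and those of clusters 2 and 4 gave 11.3% ± 9.91 (7 of 45). For clusters 2 and 4 the mean over mice lay below the 13.1% of outside nuclei and the pooled share above it. With so few nuclei and this spread over the mice, their share could not be told apart from that of the outside nuclei. Before thinning the values were 64.1% and 53.6% of M3-like and M2-like nuclei, so that the unthinned shares hid most of the difference. Thinning left out 68 M3-like and 3 M2-like nuclei that were too shallow, and the median nucleus before thinning held 7729.5 UMIs in the M3-like, 20810.5 in the M2-like and 7688 in the outside nuclei that were used. Cadps2 alone was found in 50.3% ± 14.8 of M3-like and 4.15% ± 1.01 of M2-like nuclei at 3000 UMIs, and in 5.95% ± 1.27 of outside nuclei, so that the M2-like share did not exceed that of other cell types. The outside nuclei are no blank for Cadps2, which they held at 41.2 CPM when pooled. Fst differed, in 63.8% ± 12.8 of M3-like, 14.1% ± 3.59 of M2-like and 2.27% ± 0.340 of outside nuclei.

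At 3000 UMIs Ros1 was found in 21.1% ± 1.54 of M2-like, 2.88% ± 2.12 of M3-like and 0.761% ± 0.157 of outside nuclei. Samsn1, which encodes an adaptor protein, was found in 26.2% ± 1.87, 5.73% ± 2.93 and 1.47% ± 0.259 of them. Tbx21, the T-box factor that marks bulb output neurons, was found in 20.5% ± 1.71 of M2-like and 6.00% ± 2.48 of M3-like nuclei. For each of these 3 genes the 3 mice of one type lay above the 3 of the other. Of the barcodes of these nuclei, 1 occurred in the libraries of both mouse 1 and mouse 2, and none was shared between other pairs.

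UMIs were summed per mouse and type and compared with edgeR's quasi-likelihood test, with the mouse as a block, over 13052 genes. A gene was called at a Benjamini-Hochberg adjusted p under 0.05 and a log2 fold change beyond 1 in either direction, and every log2 fold change is the M2-like minus the M3-like level. Of the genes tested 18.0% were called, 909 of them higher in M2-like nuclei (6.96% of those tested) and 1442 higher in M3-like nuclei (11.0%). The libraries of one type did not overlap those of the other for 857 and 1356 of these (17.0% of the genes tested, both directions together), and for 45.8% of all genes tested. With scaling to library size alone, which moved the median log2 fold change of all genes from 0.05 to -0.20, the split was 565 to 2043. Because the subclusters had been formed on these same counts, the p-values rank genes and do not test whether the types exist.

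Most differences were of moderate size. Of the 1442 genes called higher in M3-like nuclei, 1133 differed by 1 to 2 on the log2 scale, 222 by 2 to 3 and 87 by more than 3. Of the 909 called higher in M2-like nuclei, 652, 174 and 83 fell into these classes. Between nuclei of 4000 to 12000 UMIs, 12.3% of 6436 genes were called, 5.55% of those tested higher in M2-like and 6.79% higher in M3-like nuclei. Within cluster 5, 17.0% of 12871 genes were called, 7.38% higher in M2-like and 9.61% higher in M3-like nuclei. These nuclei are subsets of those in the main comparison and give no independent test of it.

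**Figure D2:**
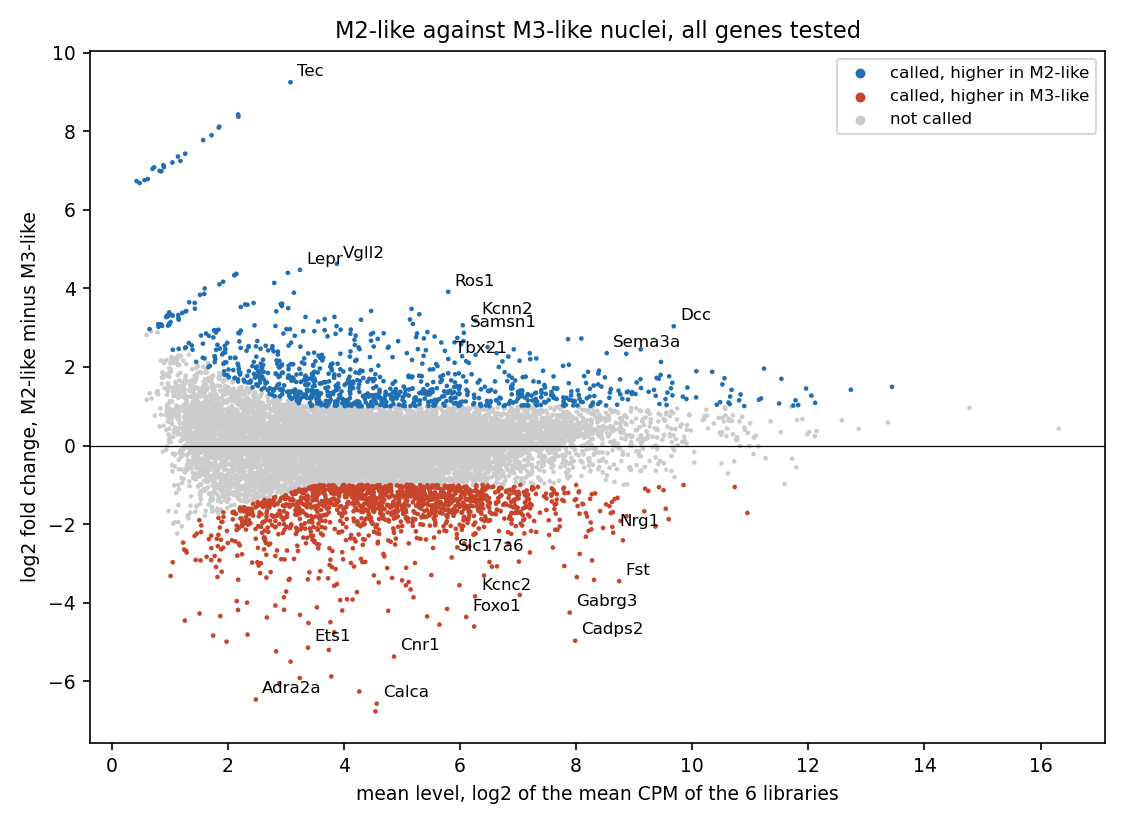
Log2 fold change, M2-like minus M3-like (vertical axis), against the log2 of the mean CPM over the 6 libraries (horizontal axis) for 13052 genes, with called genes in colour. The group above 6 at the upper left holds genes without a UMI in any M3-like library, whose fitted fold changes are no measure of size.

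The 12 leading genes of each direction were those with the largest fold change among called genes with a mean of at least 10 CPM in the higher type and no overlap between libraries. On the M2-like side they were Tec, Vgll2, Lepr, Wnt9a, Gm48657, Ros1, Arhgap42, Kif6, Gm3173, Gm7580, Ly86 and Bean1. Tec, a non-receptor tyrosine kinase, gave 176, 132 and 119 UMIs in the M2-like libraries of mice 1, 2 and 3 (21, 13.9 and 15.9 CPM) and none in the M3-like libraries. Set against a floor of 3 UMIs over the 3 M3-like libraries together, Tec was at least 12.9-fold higher in M2-like nuclei. Ly86 rested mostly on 1 mouse, at 29.8, 6.09 and 9.24 CPM, and remained apart from 1.82, 0.883 and 1.61 CPM in the M3-like libraries.

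Vgll2, a cofactor of TEAD transcription factors, stood at 33.4, 27.1 and 23.7 CPM in M2-like libraries and at 0, 0.883 and 3.22 CPM in M3-like libraries. Its 715 against 3 UMIs gave a ratio of 21.6, with an exact 95% counting interval of 7.38 to 105 (log2 fold change 4.62 ± 0.53, SE, adjusted p = 5.33e-12). Lepr, the leptin receptor, rested on 444 against 2 UMIs (ratio 20.2, interval 5.55 to 167), and Wnt9a, a Wnt ligand, on 399 against 2 (ratio 18.1, interval 4.98 to 150). These low counts bound the ratios only loosely from above. Such intervals cover counting error only.

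Ros1 encodes an orphan receptor tyrosine kinase that is the neighbour of Vgll2 on chromosome 10. It stood at 119, 98.8 and 89.6 CPM in M2-like libraries and at 3.63, 3.53 and 19.3 CPM in M3-like libraries (log2 fold change 3.91 ± 0.28, adjusted p = 3.11e-21). The M3-like library of mouse 3 was the high one, and all 3 remained well below the M2-like libraries. The next protein-coding genes beyond Ros1 were not called, Dcbld1 at 9.40 against 6.01 CPM (log2 fold change 1.00 ± 0.52, adjusted p = 0.131) and Gopc at 34.1 against 36.0 CPM (0.19 ± 0.23, adjusted p = 0.563). Vgll2 lies at chr10:52022502-52028471 on the plus strand and Ros1 at chr10:52045721-52195244 on the minus strand (GRCm38), so that their 3′ ends face each other across 17.25 kb.

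The starts of these neighbours, and of 2 leading M3-like genes described below, are shown as examples of genes that led each direction. Each run is RefSeq sequence of GRCm38.p6, 5′ to 3′ on the gene's strand, from 250 bases before to 50 bases after the first listed start. Capitals mark AGGTCA, the half-site of nuclear receptors such as Rora, Rarb and Thrb, and CCGGAA, the core of ETS factors such as Ets1, on either strand. The words do not overlap here.
Vgll2 (chr10:52022252-52022551, plus strand): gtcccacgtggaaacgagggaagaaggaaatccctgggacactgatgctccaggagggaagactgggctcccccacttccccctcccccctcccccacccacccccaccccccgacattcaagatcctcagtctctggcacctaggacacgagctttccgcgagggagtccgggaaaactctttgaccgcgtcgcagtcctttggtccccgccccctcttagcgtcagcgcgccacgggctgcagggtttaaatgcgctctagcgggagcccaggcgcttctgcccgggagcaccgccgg
Ros1 (chr10:52195195-52195494, minus strand): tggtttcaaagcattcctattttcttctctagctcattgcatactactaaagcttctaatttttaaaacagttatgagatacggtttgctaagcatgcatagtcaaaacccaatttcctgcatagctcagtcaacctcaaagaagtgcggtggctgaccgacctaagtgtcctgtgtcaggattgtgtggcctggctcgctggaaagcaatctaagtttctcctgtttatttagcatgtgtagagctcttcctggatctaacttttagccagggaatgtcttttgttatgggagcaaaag
Calca (chr7:114636308-114636607, minus strand): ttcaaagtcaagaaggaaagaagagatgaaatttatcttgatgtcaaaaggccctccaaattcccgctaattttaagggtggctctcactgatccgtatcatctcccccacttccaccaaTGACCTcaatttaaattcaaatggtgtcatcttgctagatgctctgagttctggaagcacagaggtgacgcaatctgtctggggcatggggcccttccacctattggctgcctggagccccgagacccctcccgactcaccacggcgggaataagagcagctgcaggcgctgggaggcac
Cnr1 (chr4:33924014-33924313, plus strand): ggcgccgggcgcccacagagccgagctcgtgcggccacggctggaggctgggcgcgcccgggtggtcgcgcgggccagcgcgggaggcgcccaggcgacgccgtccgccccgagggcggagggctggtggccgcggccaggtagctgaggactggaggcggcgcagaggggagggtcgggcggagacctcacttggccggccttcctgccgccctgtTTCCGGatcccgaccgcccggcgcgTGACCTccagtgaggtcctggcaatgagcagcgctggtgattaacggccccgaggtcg

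Neither word occurred in the Vgll2 and Ros1 windows, Calca held AGGTCA once, and Cnr1 held each once. The GC content of these windows was 65.3% for Vgll2, 41.7% for Ros1, 51.3% for Calca and 76.3% for Cnr1. Of the genes called higher in M2-like nuclei, 620 had a promoter in the table and 92 of these (14.8%) held CCGGAA. It was in 284 of 1103 promoters (25.7%) of genes called higher in M3-like nuclei and in 27.5% of 9732 promoters of genes tested. AGGTCA was in 11.6%, 13% and 11.8% of them. Over all 27025 genes of the promoter table the shares were 15.2% for CCGGAA and 16% for AGGTCA. These are counts of letters in 300-base windows and not of bound sites.

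On the M3-like side the leading genes were Gm26771, Calca, Adra2a, Cdkn1c, Mustn1, Smoc2, Ednra, Baiap3, Cnr1, Gm32834, Stk32a and Ets1. Calca, which encodes calcitonin and the neuropeptide CGRP, stood at 69.0, 41.5 and 30.6 CPM in M3-like libraries and at 0.119, 0.840 and 0.134 CPM in M2-like libraries (log2 fold change -6.56 ± 0.52, adjusted p = 2.59e-19). Cdkn1c, an inhibitor of cyclin-dependent kinases, stood at 52.6, 32.7 and 29.0 CPM against 0.596, 0.105 and 0.536 CPM (-6.26 ± 0.55, adjusted p = 5.25e-17). In both genes the lowest M3-like library was far above the highest M2-like library. Gm26771, an antisense RNA to Sfrp2, was called alike (-6.76 ± 0.53, adjusted p = 2.15e-19), although the counting sources used here do not say how strand was treated, and so reads of the 2 genes may not be told apart.

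3 of the 12 are receptor genes. Cnr1, the cannabinoid receptor that acts on transmitter release, stood at 83.5, 57.4 and 30.6 CPM in M3-like against 0.477, 2.0 and 0.804 CPM in M2-like libraries (-5.37 ± 0.40, adjusted p = 2.24e-20). Ednra, an endothelin receptor, stood at 21.8, 27.4 and 32.2 CPM against 0, 0.210 and 1.07 CPM (-5.87 ± 0.61, adjusted p = 9.60e-14). Adra2a, the alpha-2A adrenergic receptor, had 25 UMIs in M3-like and 2 in M2-like libraries, a ratio of 138 with a counting interval of 34.3 to 1199. All 3 were higher in 3 of 3 mice, which the choice of leading genes required.

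**Figure D3:**
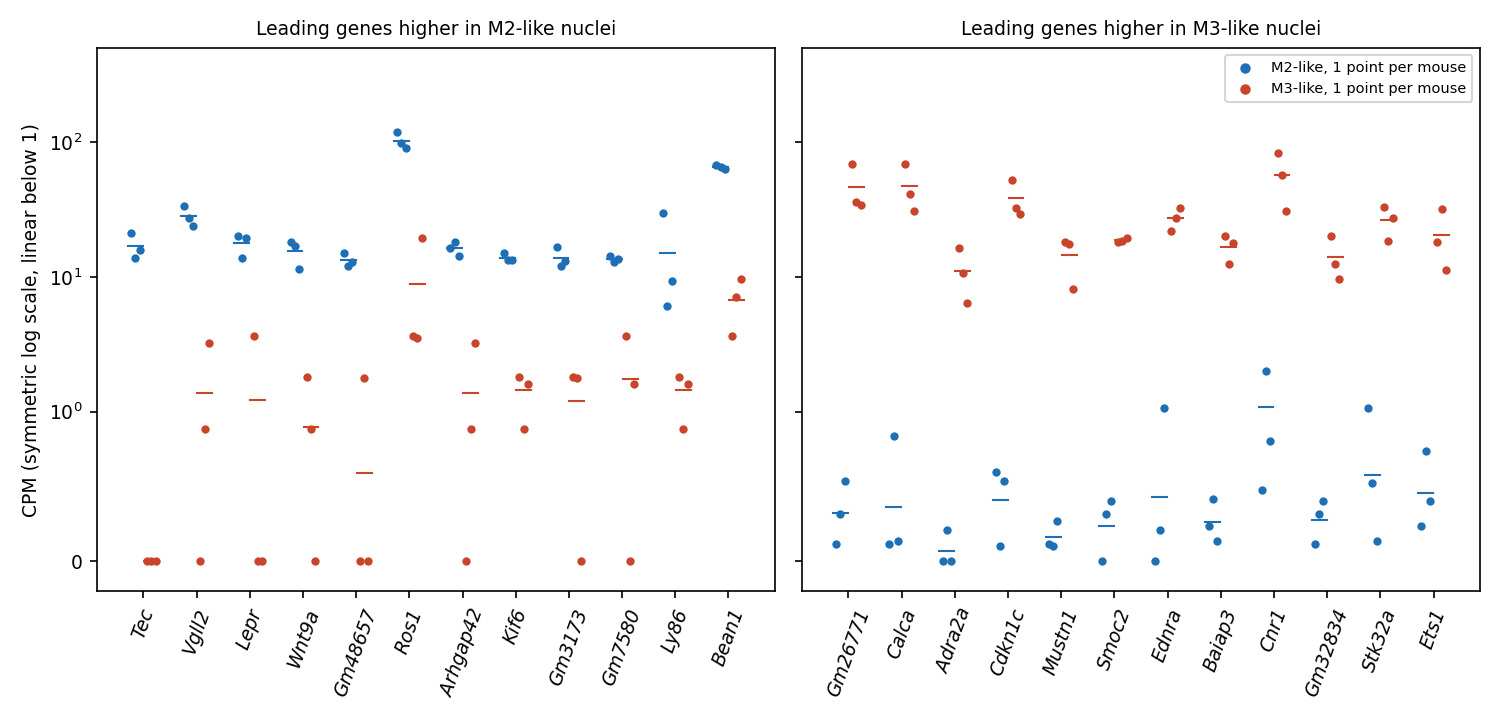
CPM per mouse (vertical axis, symmetric log scale, linear below 1) of the 12 leading genes of each direction, with 1 point for each of 3 mice (mice 1 to 3 from left to right) and a line at the mean of each type. Tec lies at 0 in all M3-like libraries, and Ros1 and Bean1 are the best counted of the M2-like genes.

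The markers named by the study are no independent evidence, since the study chose them on these nuclei. Of its 11 M2 genes, 8 were called higher in M2-like nuclei, 2 were not called and 1 was called in the other direction. Samsn1 stood at 118, 113 and 109 CPM in M2-like and at 21.8, 7.06 and 33.8 CPM in M3-like libraries (2.87 ± 0.23). The 2 that were not called, Itga4 (0.97 ± 0.32, adjusted p = 0.0126) and Sema6d (0.56 ± 0.13, adjusted p = 3.89e-04), leaned the same way by less than the fold required. Nts, the precursor of neurotensin, was the exception, at 8.94, 8.51 and 6.56 CPM in M2-like and 50.8, 46.8 and 20.9 CPM in M3-like libraries (-2.02 ± 0.30, adjusted p = 3.79e-08).

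Of the 10 M3 genes, Ccno was too low to be tested and the other 9 were called higher in M3-like nuclei. Cadps2 stood at 519, 469 and 493 CPM in M3-like and 13.5, 11.8 and 14.6 CPM in M2-like libraries (-4.97 ± 0.16, adjusted p = 4.40e-45). It encodes a protein that primes dense-core vesicles for release and lies at chr6:23262773-23839421 on the minus strand. Fst, the activin antagonist follistatin, stood at 1000, 672 and 715 CPM against 49.2, 60.0 and 72.7 CPM (-3.45 ± 0.15, adjusted p = 5.40e-35), so that M2-like nuclei held a moderate level of it rather than none. Within cluster 5 the difference was -5.15 for Cadps2 and -3.59 for Fst, and between nuclei of 4000 to 12000 UMIs it was -5.05 and -3.18.

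Levels of 4 of these genes were also taken in the subclusters of types M1, T1, ET1, ET2 and ET4. Mean levels of Cadps2 in the subclusters of types T1, ET1, ET2 and ET4 were 8.63 to 11.6 CPM. In type M1 the mean was 150 CPM, with an SD of 128 over the mice that left no stable value. Fst ran in parallel, at 2.82 to 7.72 CPM in the tufted types and 209 ± 164 CPM in M1. Ros1 was at 17.0 ± 4.98 CPM in T1 and at or below 9.77 CPM in the other types, and Vgll2 was at 3.60 ± 1.20 CPM in T1. Gene lists beyond these markers, drawn up by protein family, are described next, and for each of them the counts stand against 6.96% of all genes tested called higher in M2-like and 11.0% called higher in M3-like nuclei, and a median log2 fold change of 0.05 over all genes.

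**Figure D4:**
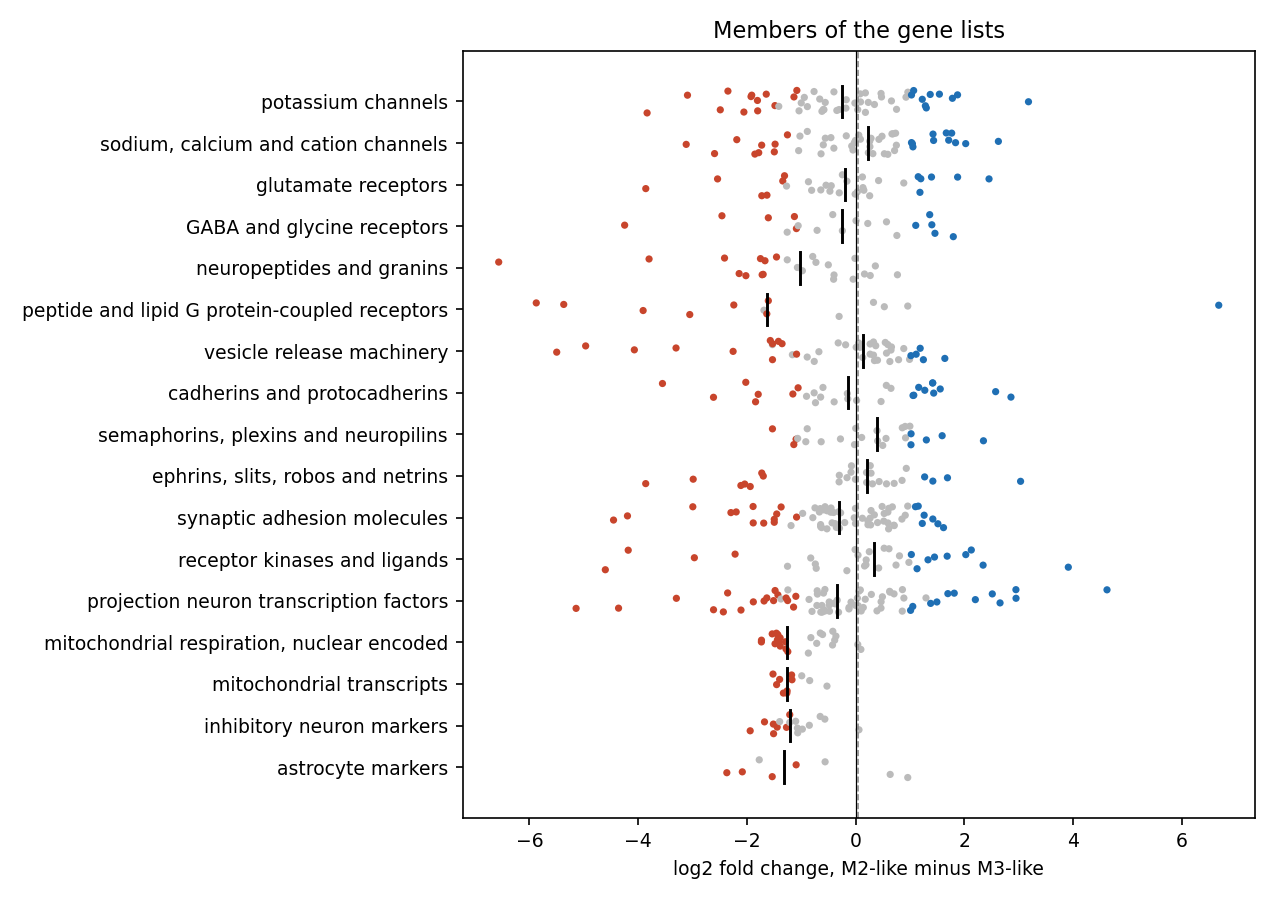
Log2 fold change, M2-like minus M3-like, of each tested member (points, called ones in blue and red) of 17 gene lists, with a black bar at the median of each list and a dashed line at the median of all genes. The bottom 4 lists, of mitochondrial and of other cells' genes, lie around -1.2 to -1.3, while called members of the channel and adhesion lists spread from about -4 to 3.

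Projection neuron identity genes were called in both directions, and several members of the list were not called. Slc17a7, the vesicular glutamate transporter of most bulb output neurons, did not pass the test, at 310, 272 and 307 CPM in M2-like and a mean of 407 ± 103 CPM in M3-like libraries (-0.18 ± 0.13, adjusted p = 0.332). Slc17a6, the second such transporter, stood at 9.06, 12.5 and 14.5 CPM in M2-like and at 136, 105 and 70.9 CPM in M3-like libraries (-2.85 ± 0.22, adjusted p = 1.10e-19). Tbx21 went the other way, at 96.3, 91.4 and 73.0 against 27.2, 12.4 and 33.8 CPM (2.20 ± 0.23, adjusted p = 9.28e-14), and its relative Tbr1 was called higher in M3-like nuclei (-1.28 ± 0.33). Fam19a2, a secreted ligand, was higher in M2-like nuclei (2.33 ± 0.15), and Uchl1, a neuronal deubiquitinase, in M3-like nuclei (-1.61 ± 0.14).

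Transcription factors gave 12 called higher in M2-like and 17 higher in M3-like nuclei among 73 tested, with a median of -0.34. Foxo1, a forkhead factor regulated by insulin signalling, stood at 4.17, 5.36 and 6.56 CPM in M2-like and at 147, 112 and 139 CPM in M3-like libraries (-4.36 ± 0.22, adjusted p = 6.51e-31). The study lists Foxo1 among the genes of the tufted type ET4, where its mean was 366 CPM. It kept its difference within cluster 5 (-4.46) and between nuclei of 4000 to 12000 UMIs (-3.45). Ets1 stood at 18.2, 31.8 and 11.3 CPM in M3-like and under 1 CPM in each M2-like library (-5.14 ± 0.62), and the LIM factor Lhx9 at 23.6, 38 and 32.2 against 3.57, 3.99 and 5.49 CPM (-2.61 ± 0.37).

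Several factors were called higher in M2-like nuclei, of which Rora, Thrb, Rarb and Nr3c1 are named after their values were seen. Rora, an orphan receptor of the circadian clock and of Purkinje cell development, averaged 4309 CPM in M2-like and 1632 CPM in M3-like libraries (1.70). Thrb, a thyroid hormone receptor, averaged 45.6 against 9.11 CPM (2.51), Rarb, a retinoic acid receptor, 35.7 against 11.0 CPM (1.81), and Nr3c1, the glucocorticoid receptor, 49.8 against 29.2 CPM (1.05). Nfatc2, a factor activated by calcineurin, stood at 30.1, 31.1 and 30.3 CPM against 1.82, 6.18 and 4.83 CPM (2.95 ± 0.38). The LIM-only protein gene Lmo2 (2.95 ± 0.42) and the zinc finger gene Zfp114 (2.66 ± 0.29) followed.

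Potassium channels were called in both directions, 10 higher in M2-like and 13 higher in M3-like nuclei of 54 tested (median -0.24). Kcnn2, a calcium-activated channel of the afterhyperpolarization, stood at 164, 127 and 120 CPM in M2-like and at 18.2, 19.4 and 14.5 CPM in M3-like libraries (3.18 ± 0.21, adjusted p = 4.82e-23). Within the fast-spiking Kv3 family the members parted. Kcnc1 averaged higher in M2-like nuclei (1.54 ± 0.15), at 268, 236 and 246 against 94.4, 110 and 98.3 CPM, whereas Kcnc2 stood at 8.94, 12 and 4.69 CPM there and at 163, 142 and 129 CPM in M3-like libraries (-3.84 ± 0.20, adjusted p = 2.06e-29). Kcnj3, a G protein-gated inward rectifier (1.88 ± 0.15), leaned to M2-like nuclei, and the sodium-activated Kcnt2 (-3.09 ± 0.45) and the ether-a-go-go relative Kcnh3 (-2.49 ± 0.31) to M3-like nuclei. The outside nuclei held Kcnc2 at 503 CPM, above both types. The difference was -3.95 in cluster 5 and -4.50 at 4000 to 12000 UMIs.

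Sodium, calcium and other cation channels gave 11 and 9 of 49 (median 0.23). The TRPC subunits, which form receptor-operated cation channels, were called in both directions. Trpc5 was called higher in M2-like nuclei (1.84 ± 0.21). Trpc7 stood at 4.05, 6.09 and 3.75 CPM in M2-like and at 59.9, 58.3 and 29.0 CPM in M3-like libraries (-3.12 ± 0.32, adjusted p = 4.08e-14). Cacna2d3, an auxiliary subunit of calcium channels, was higher in M2-like nuclei (1.77 ± 0.15), and the mechanosensitive channel gene Piezo2 was as well (1.67 ± 0.23), at 63.5, 70.2 and 88.7 against 7.26, 22.1 and 58.0 CPM.

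Glutamate receptors gave 6 and 6 of 30 (median -0.20). The NMDA receptor subunit gene Grin2c (2.45 ± 0.25) and the kainate receptor subunit gene Grik1 (1.4 ± 0.14) were higher in M2-like nuclei. The kainate subunit gene Grik4 was higher in M3-like nuclei, at 20.0, 13.2 and 11.3 against 1.07, 0.735 and 0.670 CPM (-3.86 ± 0.60). The study lists Grik4 among its ET4 genes. Receptors for GABA and glycine, listed with the associated proteins Gphn, Kctd8 and Kctd16, gave 5 and 5 of 19 (median -0.24), Gphn and Kctd8 among the 5 higher in M2-like nuclei, and here too paralogs parted. Gabrb2 stood at 1095, 972 and 1051 CPM in M2-like and at 238, 350 and 511 CPM in M3-like libraries (1.80 ± 0.15, adjusted p = 2.16e-18), and the alpha subunit gene Gabra3 (1.4 ± 0.14) went with it. Gabrg3, a gamma subunit, stood at 9.41, 22.3 and 29.1 CPM in M2-like and at 605, 501 and 258 CPM in M3-like libraries (-4.25 ± 0.20, adjusted p = 5.60e-33). The delta subunit gene Gabrd was called on the same side (-2.46 ± 0.49).

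Neuropeptides and granins, the cargo of dense-core vesicles, were called in 1 direction, with 10 of 24 higher in M3-like and none in M2-like nuclei (median -1.02). Between nuclei of 4000 to 12000 UMIs 14 of them could be tested and 6 were called, all higher in M3-like nuclei, with a median of -0.35. Beside Calca, the prohormone convertase gene Pcsk1 stood at 236, 267 and 237 CPM in M3-like and at 9.41, 18.2 and 17.7 CPM in M2-like libraries (-3.80 ± 0.17, adjusted p = 5.62e-35). Cck, the cholecystokinin gene, which is known as a tufted cell gene in the bulb, stood at 966, 704 and 654 against 123, 134 and 105 CPM (-2.41 ± 0.14), and chromogranin A (Chga) at 390, 306 and 337 against 59.8, 60.8 and 75.4 CPM (-2.14 ± 0.14). Not all of the group moved. Pcsk2, another convertase gene, averaged 319 CPM in M2-like libraries and 223 CPM in M3-like ones (0.77) without reaching the fold required, and chromogranin B (Chgb) differed by -0.01. Of the genes called, Vip, Gal and Npy are interneuron peptides as well, and Npy differed by 0.02 between nuclei of 4000 to 12000 UMIs.

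Receptors for peptides and lipids gave 7 of 13 higher in M3-like nuclei and 1, Tacr3, in M2-like nuclei (median -1.63). After Ednra and Cnr1 came Vipr2, a receptor for vasoactive intestinal peptide, at 39.9, 33.5 and 20.9 against 1.07, 2.94 and 1.21 CPM (-3.91 ± 0.46), and Crhr1, a receptor for corticotropin-releasing hormone (-3.05 ± 0.66). Vipr2 was at 131 CPM in the outside nuclei, above its M3-like level, and Ednra at 3.34 CPM, well below its M3-like level. Tacr3, the neurokinin B receptor, had 70 UMIs in M2-like and none in M3-like libraries, which set it at least 2.12-fold higher in M2-like nuclei. Receptors for monoamines and acetylcholine gave 4 of 21 higher in M3-like nuclei and none in M2-like nuclei (median -0.12), among them Htr7 (-3.36 ± 0.64) and Drd1 (-2.14 ± 0.53). Htr7 was uneven, at 3.63, 20.3 and 11.3 CPM in M3-like against 1.19, 0.735 and 0.938 CPM in M2-like libraries.

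The release machinery gave 5 and 11 of 43 (median 0.13). Besides Cadps2 the M3-like side held Baiap3, a Munc13 relative that acts on dense-core vesicles (-5.50 ± 0.68), at 20.0, 12.4 and 17.7 against 0.238, 0.420 and 0.134 CPM, the complexin gene Cplx2 (-3.30 ± 0.36) and the synaptotagmin gene Syt17 (-4.07 ± 0.65). Baiap3 is also among the M1 genes named by the study. On the M2-like side were the active zone genes Rims2 (1.25 ± 0.14) and Bsn (1.19 ± 0.15) and the vesicle gene Vamp1 (1.64 ± 0.32). Cytoskeletal genes gave 2 and 3 of 26 (median 0.06), close to the 6.96% and 11.0% of all genes tested. The 2 higher in M2-like nuclei were Ank1 (1.13 ± 0.17) and Nefm (1.58 ± 0.34). The 3 higher in M3-like nuclei were Tubb2a, Tubb2b and the stathmin gene Stmn1, the last at 610, 496 and 375 against 74.0, 95.7 and 75.6 CPM (-2.32 ± 0.14).

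Axon guidance genes were called in both directions. Among semaphorins, plexins and neuropilins 5 were called higher in M2-like and 3 higher in M3-like nuclei of 24 (median 0.40). Sema3a, a secreted repellent, stood at 658, 565 and 556 CPM in M2-like and at 98.0, 102 and 235 CPM in M3-like libraries (2.35 ± 0.17, adjusted p = 7.10e-22). Its receptor gene Nrp1 was higher on the same side (1.59 ± 0.14), at 400, 411 and 430 against 151, 167 and 172 CPM, and Nrp2 on the other (-1.10 ± 0.17), at 34.4, 54.0 and 54.1 against 136, 132 and 93.4 CPM. Nrp2 is also among the M1 genes named by the study, of which 4 of 9 tested were called higher in M3-like nuclei.

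Ephrins, slits, robos and netrins gave 4 and 7 of 27 (median 0.20). Dcc, the netrin receptor, stood at 1630, 1316 and 1343 CPM in M2-like and at 165, 162 and 316 CPM in M3-like libraries (3.03 ± 0.16, adjusted p = 7.60e-30). The ephrin ligand genes Efnb3 and Efna3 were called higher in M3-like nuclei, Efnb3 at 70.8, 57.4 and 80.6 against 3.93, 5.57 and 2.28 CPM (-3.86 ± 0.30) and Efna3 at 38.1, 33.5 and 22.6 against 1.91, 6.20 and 2.14 CPM (-2.99 ± 0.40). The ephrin receptor gene Epha6 lay on the M2-like side (1.69 ± 0.14).

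Cadherins and protocadherins gave 10 and 7 of 29 (median -0.14). Cdh20 stood at 109, 111 and 110 CPM in M2-like and 12.7, 31.8 and 16.1 CPM in M3-like libraries (2.58 ± 0.22), and Cdh23 was called alike (2.86 ± 0.33). Pcdh19 stood at 6.20, 13 and 6.43 against 127, 124 and 105 CPM (-3.55 ± 0.22, adjusted p = 1.32e-25), and Cdh7 went with it (-2.61 ± 0.46). Synaptic adhesion molecules gave 7 and 13 of 67 (median -0.30), with Cntnap2 on the M2-like side (1.42 ± 0.14) and Slitrk2 on the M3-like side (-4.20 ± 0.48). Integrins and matrix genes gave 6 and 6 of 42 (median -0.14), with Itga9 (2.83 ± 0.34) and Itga8 (-3.72 ± 0.59) on opposite sides. The study lists Itga8 among its ET4 genes.

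Receptor kinases and their ligands gave 9 and 4 of 30 (median 0.34). Kitl, the ligand of the kinase Kit, stood at 322, 303 and 383 CPM in M2-like and at 39.9, 92.7 and 174 CPM in M3-like libraries (2.03 ± 0.17). It differed more within cluster 5 (3.01). Ntrk3, the receptor of neurotrophin-3, was higher on the same side (2.13 ± 0.15), whereas the Wnt receptor Ror1 stood at 4.77, 4.83 and 5.36 against 178, 132 and 131 CPM (-4.60 ± 0.21, adjusted p = 1.89e-33). Nrg1, the neuregulin ligand, stood at 695, 903 and 438 CPM in M3-like and 112, 128 and 116 CPM in M2-like libraries (-2.22 ± 0.14), and Erbb2, which signals for neuregulins, was called with it (-4.18 ± 0.78).

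Genes of the TGF-beta family and its antagonists gave 2 and 4 of 30 (median -0.09). The ligand genes Tgfb2, at 38.1, 33.5 and 33.8 against 1.55, 2.10 and 3.08 CPM (-3.73 ± 0.41), and Inhba, the activin subunit that follistatin binds (-3.25 ± 0.64), were higher in M3-like nuclei beside Fst itself. Second messenger enzymes gave 9 and 5 of 46 (median 0.04). The phosphodiesterase gene Pde1a stood at 138, 86.5 and 66.1 CPM in M3-like and 2.62, 5.88 and 1.61 CPM in M2-like libraries (-4.56 ± 0.28), and the diacylglycerol kinase gene Dgkg was higher in M2-like nuclei (2.26 ± 0.17). Calcium-handling genes gave 3 and 6 of 24 (median -0.12), among them Slc8a1, a sodium-calcium exchanger, at 218, 252 and 229 against 18.6, 36.3 and 22.0 CPM (-2.95 ± 0.16). The ryanodine receptor gene Ryr1 moved most with the choice of nuclei, from 1.62 over all nuclei to 4.71 within cluster 5.

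Genes of tufted cells, the other output neurons of the bulb, several of which the study chose on these nuclei and which are then no independent evidence, gave 6 of 12 higher in M3-like and none in M2-like nuclei (median -1.21), namely Foxo1, Ly6g6e, Cck, Barhl2, Pip5k1b and Wnt5b. Within cluster 5 the list gave 4 of 11 higher in M3-like and 2 higher in M2-like nuclei. Markers of several other cell types were called higher in M3-like nuclei and none in M2-like nuclei. Of 17 inhibitory neuron markers tested 7 were called higher in M3-like nuclei (median -1.21), and their summed level was 307 to 529 CPM in M2-like and 553 to 1294 CPM in M3-like libraries against 9309 CPM in the outside nuclei. Astrocyte markers gave 4 of 8 (90.6 to 93.1 against 119 to 147 CPM), oligodendrocyte markers 3 of 7 (84.9 to 98.8 against 88.6 to 192 CPM) and ensheathing glia markers 4 of 6 (49.2 to 89.6 against 118 to 268 CPM), all in this direction, although the summed levels of the oligodendrocyte list overlapped between the types. Microglia and vascular markers gave none of 3 and 2 tested, and no marker of oligodendrocyte precursors passed the count filter. Among defining markers, Gad1 averaged 30.4 and 87.9 CPM and Slc1a3 4.14 and 14 CPM over the M2-like libraries and over the M3-like libraries, so that neither was at 0. Some members that were not called leaned to M2-like nuclei. Among them, the astrocyte marker Slc1a2 averaged 56.0 against 42.6 CPM (0.64) and the microglia marker P2ry12 30.4 against 18.3 CPM (0.96). Of the 1442 genes called higher in M3-like nuclei, 1134 (78.6%) stood in the outside nuclei at over 2 times their M2-like level, against 20.0% of all genes tested. The calls and this share use the same M2-like levels, so that part of the share follows from the choice of the genes. Set against their M3-like level instead, 549 of the 1442 (38.1%) stood higher in the outside nuclei, against 46.4% of all genes tested. That share uses the M3-like levels on which the calls also rest. What part RNA of other cells had in the other results was not tested.

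Mitochondrial, respiration and immediate early genes were called in the same direction. Of 11 transcripts of the mitochondrial genome 8 were called higher in M3-like nuclei (median -1.26, summed 235 to 408 against 674 to 1319 CPM). Nuclear genes of mitochondrial respiration gave 13 of 24 (median -1.26), and immediate early genes 5 of 8 (median -1.26), with Fos at 23.6, 31.8 and 27.4 against 0.953, 6.72 and 3.75 CPM (-2.71 ± 0.41). Among 6 tested nuclear long noncoding RNAs, Miat was called higher in M2-like nuclei, at a mean of 199 against 44.8 CPM (2.45), and Malat1 took 8.21 to 9.22% of UMIs in M2-like and 6.68 to 8.65% in M3-like libraries.

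The values of these lists changed with the choice of nuclei. Between nuclei of 4000 to 12000 UMIs the medians of the inhibitory, mitochondrial transcript and respiration lists were -0.36, -0.28 and -0.59, and that of all genes was 0.01. Of the 26 genes of other cells and of the mitochondrial genome called higher in M3-like nuclei over all nuclei, 17 could be tested in that range and 1 was called, with a median of -0.31 over the 17. Within cluster 5, 25 could be tested and 15 were called, with a median of -1.17. With cluster 5 and the UMI range together, 17 could be tested and none was called, with a median of -0.12. The UMI range lies above the median depth of the M3-like nuclei of clusters 2 and 4, so that it changes the makeup of the nuclei as well as their depth. In that range Calca (-5.52), Pcsk1 (-3.49) and Cck (-1.74) were called. Most of the largest differences had too few UMIs to be tested in that range, where 36 of the 87 M3-like genes and 7 of the 83 M2-like genes beyond 3 on the log2 scale passed the count filter. Over all nuclei, the medians of these lists lay within the range of 1 to 2 on the log2 scale that held most genes called higher in M3-like nuclei.

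Differences also ran with gene length. Genes called higher in M2-like nuclei spanned 59.4 kb at the median and those called higher in M3-like nuclei 10.6 kb. Over 5 groups of genes of about equal number, ordered by span from a median of 5.15 kb to one of 160 kb, the median log2 fold change was -0.47, -0.11, 0.08, 0.19 and 0.33. Among nuclei of 4000 to 12000 UMIs it ran from -0.56 to 0.28, and within cluster 5 from -0.40 to 0.31, so the order of the groups was the same in each. Whether intronic reads were counted is not given in the sources used here, and its bearing on this trend was not tested. Dcc and Cntnap2, which are long and higher in M2-like nuclei, lay along this trend. Cadps2, which spans 576649 bases and was higher in M3-like nuclei, and Vgll2, which spans 5970 bases and was higher in M2-like nuclei, lay against it.

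**Figure D5:**
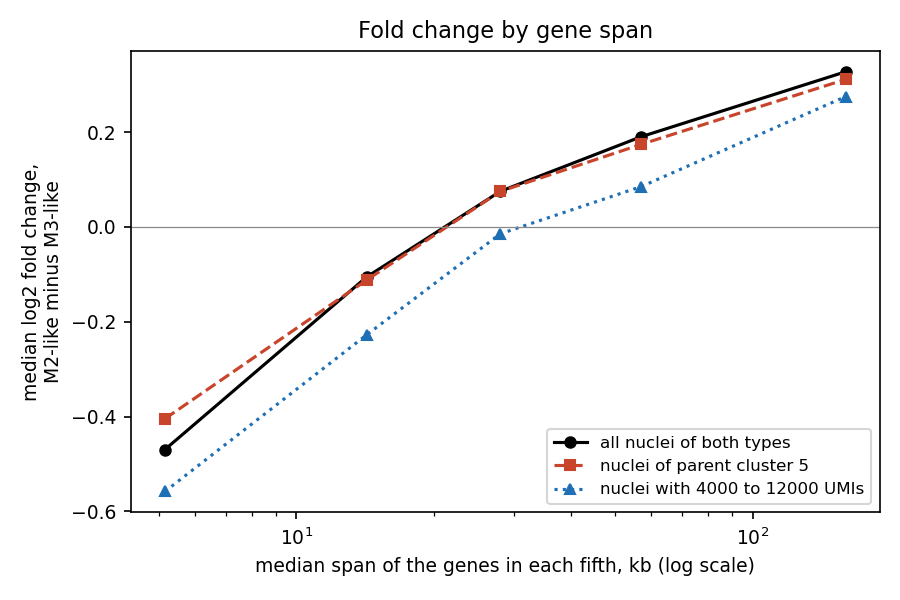
Median log2 fold change, M2-like minus M3-like (vertical axis), of genes in 5 groups by genomic span (horizontal axis, median span in kb, log scale), over all nuclei, nuclei of cluster 5 and nuclei with 4000 to 12000 UMIs. In each of the 3 sets the median rises from the group of shortest genes, at -0.40 to -0.56, to the longest, at 0.28 to 0.33.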

How the data were processed

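Per the file headers and the study's methods, the authors aligned reads to mouse genome GRCm38 (mm10) and counted UMIs with Cell Ranger 3.0.2. The deposited values are raw counts per gene and nucleus, and whether intronic reads were counted is not given in the sources used here. The authors' table gives clusters, subclusters and the deposited percent of mitochondrial UMIs per nucleus, computed by the authors from the same counts, for nuclei kept at 1000 genes or more and at most 5% mitochondrial UMIs. It also holds 6 numeric columns that were not used, and no doublet caller was run here. Counts were summed per mouse and subcluster, 1 library per mouse, at 550818 to 9518786 UMIs.

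Genes passing filterByExpr were tested with edgeR 4.0.16 in R 4.3.3 (TMM scaling, quasi-likelihood test, Benjamini-Hochberg adjustment over all genes). The mouse was a block, since both types of a number come from the same animal. Deviations from the type means correlated at 0.018, 0.182 and 0.107 for mice 1, 2 and 3. CPM used library totals without TMM, and the SE of a log2 fold change was its size over the root of the F statistic. Nuclei were thinned to 3000 UMIs without replacement, and the floor for genes without UMIs was 3 UMIs. Alternatives were the design without the block, library size scaling, DESeq2 1.42.0, no filter, fits over 7 types, thinned libraries, nuclei of 4000 to 12000 UMIs, of at least 1500 genes or without 2 Gad1 and Gad2 UMIs, and each mouse left out. Nuclei of cluster 5, alone and with the UMI range, were added after the data were seen. The script was tested on simulated data. Gene spans came from GENCODE M21 by Ensembl identifier, for 13044 of 13052 genes, and promoters from RefSeq.

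The members and gene lists were chosen with earlier results of these data known. Genes named in the text were the 12 with the largest fold change in each direction among called genes with no overlap and at least 10 CPM in the higher type, all M2 and M3 genes named by the study, and up to 4 called genes per list and direction. Chgb, Pcsk2, Gal, Vip, Nr3c1, Rora, Rarb, Thrb, Gphn, Kctd16, Pip5k1b, Wnt5b, Slc17a7, Malat1, Dcbld1, Gopc, Slc1a2 and P2ry12 were named after their values were seen. Values of some single genes are not reported here.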

Additional observations from a re-analysis of the deposited data

How the results depend on the processing

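Of 2351 genes called, all that were tested kept their direction without the mouse block, with library size scaling, DESeq2, no filter, 7 types, thinned libraries, without nuclei of 2 or more Gad1 and Gad2 UMIs, at least 1500 genes and each mouse left out. Direction held for 1198 of 1208 genes between 4000 and 12000 UMIs, for 2325 of 2327 within cluster 5 and for 1154 of 1172 with both limits. The count was 1556 in libraries thinned to M3-like totals, 794 between 4000 and 12000 UMIs and 747 with both limits, where fewer genes or nuclei were tested. Genes higher in M2-like nuclei numbered 565 with library size scaling, and 533, 357 and 360 in those 3 settings. Genes higher in M3-like nuclei numbered 437 in the UMI range and 387 with both limits. Leaving out each mouse gave 1826 to 2569 genes, 719 to 1001 higher in M2-like and 1107 to 1568 higher in M3-like nuclei. DESeq2 called 1927 genes. Without the replicate block 2410 genes were called, 907 and 1503 in the 2 directions, of which 2290 were shared with the blocked fit.

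The gene lists held 270 called genes, 144 in the UMI range and 233 to 274 with a mouse left out. Genes of other cells and mitochondria higher in M3-like nuclei numbered 26, against 17 in thinned libraries, 1 in the UMI range and 15 within cluster 5. Of the 26, 17 could be tested in the UMI range and 25 within cluster 5. With both limits 17 could be tested and none was called. The number was 16 to 23 with a mouse left out, and 16 without mouse 2. Reversed values of the genes reported were log2 fold changes of 0.021 for Npy and 0.027 for mt-Nd1 in the UMI range, and of 0.10 for Npy and 0.070 for mt-Nd1 with both limits, under which 1 more gene, not reported here, reversed, and the cause was not tested.

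The M3-like share of nuclei, 21.4%, was 14.4% at 1500 genes or more, 16.4% within cluster 5 and 18.3 to 24.5% with a mouse left out. The ratio of median depths, 3.95, was 2.24 at 1500 genes or more, 2.33 for genes in place of UMIs, 2.72 within cluster 5 and 3.26 to 4.39 with a mouse left out. M3-like nuclei with an M3 marker made up 72.5% at 3000 UMIs, 56.3% at 2000 UMIs and 65.5 to 80.7% with a mouse left out. The 550818 UMIs of the smallest M3-like library limit what can be seen of genes that are low in that type.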
